A study of Mus musculus with 4 samples.

Results

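The mRNAs of sterol and fatty acid synthesis were followed in the mouse mammary carcinoma line 4T1, in cells that carried the CD44v8-10 splice form of the receptor CD44 or lacked it. The genes were taken from a list of 29, of which 28 were measured: 18 for sterols and 10 for fatty acids, out of 11956 genes tested. Each was read from the probe sets that the array annotation pairs with that gene alone, and the probe set with the highest mean signal over all arrays stood for the gene. Acat2, which makes acetoacetyl-CoA for the sterol pathway, had no such probe set and was not analysed here. The study read total RNA on 4 one-colour Affymetrix arrays, of which 2 hold CD44v8-10-positive cells and 2 CD44v8-10-negative cells, each pair numbered replicate 1 and 2, and asked how gene expression goes with that splice form. Both groups are the same line, grown in RPMI medium with bovine serum under normoxia, and the cells were picked by hand under a microscope. The labels give no passage, clone or separate culture, so each p-value measures only the spread between these arrays, which may be technical.

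As background, the sterol pathway turns acetyl-CoA into mevalonate, then into isoprenoids and squalene, and closes squalene into the ring system that becomes cholesterol. Fatty acid synthesis starts from the same acetyl-CoA, which is carboxylated, built into a saturated chain, and then lengthened or desaturated. Many enzymes of both pathways are turned on by the SREBP transcription factors, which are held in the endoplasmic reticulum while sterols are plentiful and are cut free when sterols fall. Srebf2 is best known for the sterol genes and Srebf1 for the fatty acid genes. Mammary epithelium depends on both pathways for membranes and, in lactation, for milk fat.

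The arrays differed in brightness, with trimmed mean intensities of 196 to 345 of which negative replicate 2 had the highest, so signals were quantile normalized. Epithelial markers were present in both groups: all 5, Krt8, Krt18, Krt14, Epcam and Cdh1, were above the filter on dim probe sets, and Krt14 and Epcam were themselves called higher in the positive cells by limma (adjusted p of 0.00547 and 0.0118). Krt8, Krt18 and Cdh1 overlapped between the groups. So did Cd44 itself, the gene whose splice form names the groups, with 3550.3 and 2840 on the positive and 3049.8 and 2827 on the negative arrays, and which of its exons that probe set reads was not tested. Of 5 adipocyte markers in the file, 0 were above it, and their summed signal was 41.5 and 73.6 on the positive against 34.0 and 24.8 on the negative arrays. Macrophage markers had 5 of 8 above the filter and summed to 499 and 677 in the positive against 455 and 409 in the negative arrays. Fibroblast markers had 3 of 7 above it, summing to 140.1 and 147 against 189 and 169. Endothelial markers had 0 of 5 above it, summing to 86.6 and 91.6 against 41.8 and 45.65. The part of other cell types in the values that follow was not tested. Esrp1, a regulator of epithelial splicing, had the smallest limma adjusted p of all genes, 1.03e-05, at 1348 and 1365 on the positive against 64.1 and 30.9 on the negative arrays.

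No gene of sterol or fatty acid synthesis was called different between the groups. Of the 28 genes, 0 passed an adjusted p of 0.05 in limma, where 9 of all 11956 genes, or 0.0753%, did. At an unadjusted p under 0.05, 1 gene, Srebf2, was higher in the positive cells and 0 were lower, beside 2.68% of all genes higher and 1.76% lower. The Srebf2 call at that level was lost without scaling, where its log2 fold change was 0.80 with an unadjusted limma p of 0.195. The sterol count at that level became 2 with no filter, by Sqle, and 3 without negative replicate 1, by Hsd17b7 and Idi1. The fatty acid count became 1, by Fasn, with the replicate block, with averaged probe sets, without positive replicate 1 and without negative replicate 1. Most estimates were small: for 26 of the 28 genes the 95% interval of the log2 fold change lay wholly between -1 and 1. The exceptions were Srebf2 and Hsd17b7, whose upper bounds were 1.60 and 1.18. All log2 fold changes are positive minus negative, on the log2(signal + 16) scale, which understates the change of dim genes. Signals are given for replicate 1 and then replicate 2 of each group.

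The list medians lay close to that of all genes, and the difference between the lists was not tested. Of 18 sterol genes 13 had a log2 fold change above 0, with a median of 0.11, where 54.3% of all genes were above 0 with a median of 0.03. Of 10 fatty acid genes 5 were above 0, with a median of 0.01. The sterol median was smaller than the SD of its array medians within groups, 0.14. The sterol count rested on how the arrays were scaled and on a single array: it was 10 under median centring, 8 without scaling, and 7, with a median of -0.03, without negative replicate 2. The median of all genes was itself -0.07 under median centring and -0.15 without scaling. In both of these settings the sterol median lay 0.10 above that of all genes. They must give the same value here, since centring moves every gene of an array by the same amount. The sterol median lay 0.08 above that of all genes in the main setting and 0.11 above it under trimmed-mean scaling. Without negative replicate 2 the sterol median minus that of all genes was -0.04, and without negative replicate 1 it was 0.21. Without positive replicate 1 the order of the lists turned, with medians of 0.17 for the fatty acid genes and 0.13 for the sterol genes.

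**Figure D1:**
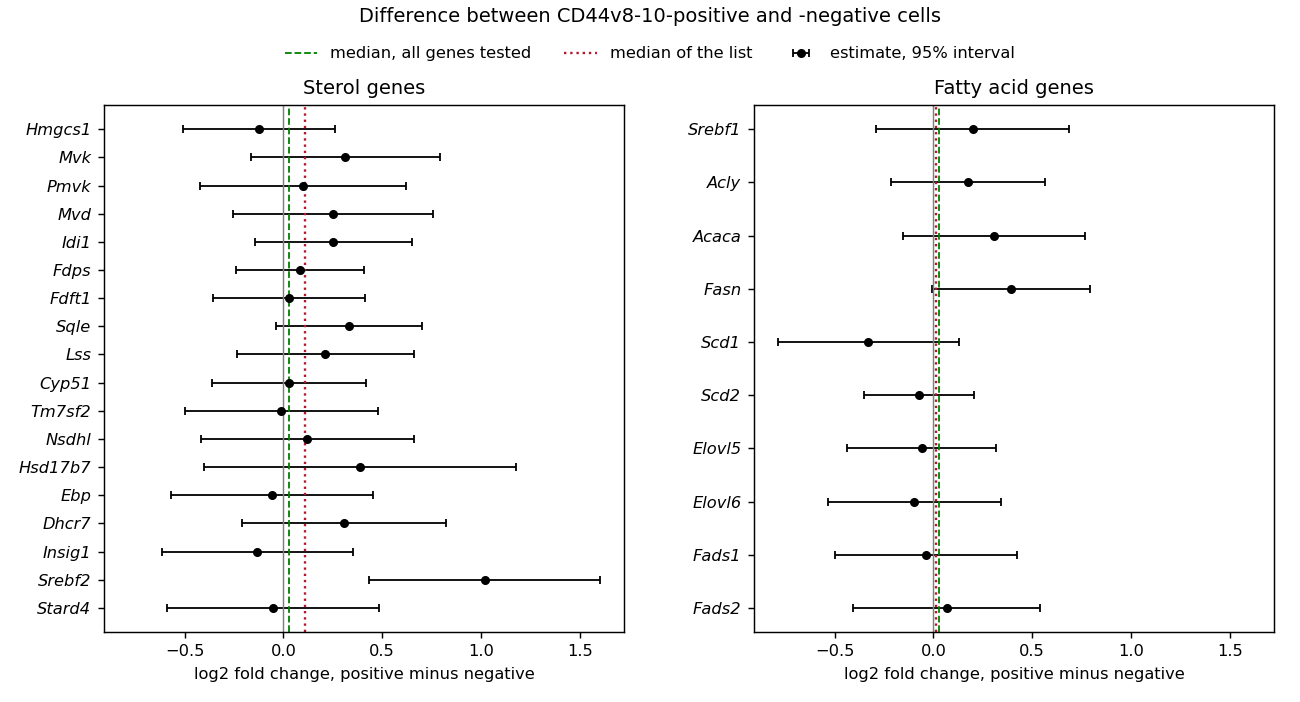
The log2 fold change of each gene (x axis, positive minus negative cells, on the log2(signal + 16) scale) is shown as a point with its 95% interval, for 18 sterol genes on the left and 10 fatty acid genes on the right. The interval of Srebf2, from 0.43 to 1.60, is the one that does not reach 0, and the dotted and dashed lines mark the list medians and the median of all genes tested.

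Srebf2, the transcription factor that drives the sterol enzymes, had the largest estimate of the 28 genes. Its normalized signal was 392 and 658 in the positive arrays and 211 and 279 in the negative arrays, so the groups did not overlap. The group means were 525 ± 188 and 245 ± 48.3 (SD, n = 2 each). The fitted difference was 2.03-fold, a log2 fold change of 1.02 ± 0.27 (SE), with a limma unadjusted p of 0.00251 and an adjusted p of 0.596. The adjusted p ran from 0.0799 to 1.00 over the other settings, so no setting called it. A second Srebf2 probe set above the filter gave a log2 fold change of 0.28, with 271 and 289 on the positive against 290.3 and 178 on the negative arrays, which overlap. The mean of both probe sets gave 0.65, and leaving out positive replicate 2, the brightest array for this gene, gave 0.66 on the probe set used. The gene lies on chromosome 15 of GRCm38.p6, from 82147269 to 82205379.

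The mRNAs of other genes that act around SREBP did not pass the test and had smaller estimates. Insig1, which holds the SREBP escort protein in the endoplasmic reticulum and is itself an SREBP target, had 478 and 635 on the positive against 567 and 646 on the negative arrays, a log2 fold change of -0.13. Stard4, a cytosolic sterol transfer protein, had 699 and 474 against 696 and 512, a log2 fold change of -0.05. For both genes the groups overlapped, and each differed more between arrays of the same label than between groups. Scap, the escort protein, had a log2 fold change of 0.05, Insig2 -0.07, and the proteases Mbtps1 and Mbtps2, which cut SREBP free, 0.04 and -0.17, all with overlapping groups. These 4 come from the list of other pathway genes and were named after their values were seen. The second SREBP gene, Srebf1, had 527 and 589.9 against 563 and 415, a log2 fold change of 0.20, which was -0.0041 without scaling.

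Nearly all promoters of the sterol genes held a sequence feature that the choice of genes had not used. RefSeq promoter windows of build GRCm38.p6, which run from 250 bases before to 50 after an annotated transcript start, were matched for 21 of the 28 genes. Fdps, Fdft1, Sqle, Stard4, Scd1, Scd2 and Fads1 had no entry in the table. Of the 14 sterol genes with a window, 14 held CCAAT, the box bound by NF-Y, on either strand, and so did 4 of the 7 fatty acid genes, against 42.9% of 9640 tested genes with a window. The Sp1 box GGGCGG was in 13 of the 14 sterol genes and 3 of the 7 fatty acid genes, against 68.2%. The core of the sterol regulatory element, written TCACNCC, was in 2 of the 14, Hmgcs1 and Srebf2, and in 0 of the 7, against 19.2%. A gene with several windows was counted if any of them held the motif. Not every window lies at the outermost start of its gene: those of Fasn, Acaca and Srebf1 belong to starts 619, 65803 and 1605 to 13715 bases inside the gene. Dhcr7 held CCAAT only in a window 7047 bases inside the gene, and a Pmvk window 5030 bases inside held none. With windows within 50 bases of that outermost start alone, a count added after the data were seen, CCAAT was in 13 of 14 sterol genes, all but Dhcr7, and in 2 of 4 fatty acid genes, against 40.3% of 6696 tested genes. These are matches of letters, not sites of binding, and a window without a match says nothing about the factor.

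The 4 windows below are of Srebf2 and Hmgcs1, which hold the sterol element core, of Mvk, which holds the most CCAAT boxes, and of Fasn, the fatty acid gene with the largest estimate. They are Srebf2 at chr15:82147019-82147318 on the plus strand, Hmgcs1 at chr13:119690101-119690400 on the plus strand, Mvk at chr5:114444019-114444318 on the plus strand, and Fasn at chr11:120824498-120824797 on the minus strand. Each runs 5′ to 3′ along its gene and ends 50 bases past the transcript start it was cut for, which in Fasn lies 619 bases inside the gene. Capitals mark TCACNCC and CCAAT on either strand, so that CCAAT on the opposite strand reads ATTGG.
Srebf2: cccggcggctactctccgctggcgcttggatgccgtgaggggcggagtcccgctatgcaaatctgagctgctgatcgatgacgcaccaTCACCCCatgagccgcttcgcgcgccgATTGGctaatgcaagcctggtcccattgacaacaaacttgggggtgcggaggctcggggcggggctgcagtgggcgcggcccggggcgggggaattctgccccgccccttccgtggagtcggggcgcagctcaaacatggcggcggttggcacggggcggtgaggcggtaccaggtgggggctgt
Hmgcs1: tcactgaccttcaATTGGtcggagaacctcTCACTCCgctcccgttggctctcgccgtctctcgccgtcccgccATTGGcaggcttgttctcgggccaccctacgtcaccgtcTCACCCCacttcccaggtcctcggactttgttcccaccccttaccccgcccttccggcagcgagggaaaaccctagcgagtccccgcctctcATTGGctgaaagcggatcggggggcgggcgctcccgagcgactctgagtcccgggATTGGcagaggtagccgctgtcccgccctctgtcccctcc
Mvk: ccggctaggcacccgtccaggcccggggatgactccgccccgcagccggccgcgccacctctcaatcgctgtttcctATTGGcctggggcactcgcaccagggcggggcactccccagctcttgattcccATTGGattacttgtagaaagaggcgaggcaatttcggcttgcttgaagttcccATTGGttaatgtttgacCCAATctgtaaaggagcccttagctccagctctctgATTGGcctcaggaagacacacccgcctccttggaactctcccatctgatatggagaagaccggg
Fasn: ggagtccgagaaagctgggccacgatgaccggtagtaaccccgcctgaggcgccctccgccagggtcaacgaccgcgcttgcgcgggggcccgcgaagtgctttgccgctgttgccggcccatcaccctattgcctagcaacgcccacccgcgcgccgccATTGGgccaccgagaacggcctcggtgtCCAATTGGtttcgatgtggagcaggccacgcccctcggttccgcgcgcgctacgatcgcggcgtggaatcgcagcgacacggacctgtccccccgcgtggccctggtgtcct
The Srebf2 window holds 1 sterol element core and 1 CCAAT, and Hmgcs1 holds 2 cores and 4 CCAAT boxes. Mvk holds 5 CCAAT boxes and Fasn 3, of which a pair on opposite strands overlaps in Fasn. Hmgcs1 and Srebf2, the pair with the core, had log2 fold changes of -0.12 and 1.02.

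The early enzymes, from acetyl-CoA to farnesyl diphosphate, differed little. Of these 6 genes 5 had a log2 fold change above 0, with a median of 0.17, and 3, Mvk, Mvd and Idi1, had every positive signal above every negative one, as did 18.5% of all genes. Under median centring Mvk alone of the 3 stayed separated, under trimmed-mean scaling Mvk and Mvd, and without scaling 0. In these settings 11.3%, 16.8% and 4.12% of all genes had every positive signal above every negative one. Hmgcs1, the cytosolic HMG-CoA synthase, had 4815 and 3455 on the positive against 4651 and 4244 on the negative arrays, a log2 fold change of -0.12. Its positive arrays were the highest and the lowest of the 4, so the groups overlap completely on this probe set. A dimmer Hmgcs1 probe set had 1757 and 1632 against 1527 and 1384, apart and higher, a log2 fold change of 0.22. The remaining Hmgcs1 probe sets overlapped, with log2 fold changes from -0.12 to -0.03. Mvk, mevalonate kinase, had 361 and 372 on the positive against 322 and 264 on the negative arrays. Its log2 fold change was 0.31 ± 0.22 (SE), with a limma unadjusted p of 0.181 and an adjusted p of 0.985, so this small gap did not pass the test. Pmvk, which adds the next phosphate, had 402 and 591 against 502 and 411, a log2 fold change of 0.10 that was -0.03 under median centring and -0.11 without scaling.

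Mvd, the decarboxylase that makes isopentenyl diphosphate, had 289 and 275 on the positive against 272 and 202 on the negative arrays. Idi1, the isomerase that follows, had 3264 and 3347 against 3259.5 and 2359.6. In both genes the separation was narrow on 1 side: negative replicate 1 lay just under the positive arrays and negative replicate 2 well below, with log2 fold changes of 0.25 and 0.25. Without negative replicate 2 these fell to 0.05 for Mvd and 0.02 for Idi1. Fdps, farnesyl diphosphate synthase, had 6230.4 and 5351 against 5850.4 and 5086, a log2 fold change of 0.08 that was -0.03 without scaling.

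From squalene onward the picture was much the same. Of 9 enzymes 7 were above 0 with a median of 0.12, and in 2, Sqle and Lss, the positive arrays were apart and higher, a share near the 18.5% of all genes. Lss lost this separation under median centring, where 11.3% of all genes had it, and both lost it without scaling, where 4.12% did. Sqle, squalene epoxidase, the first oxygen-requiring step of the pathway, had 2214 and 2267 on the positive against 1831 and 1724 on the negative arrays. Replicates of Sqle lay close together, at 2240.4 ± 37.0 against 1778 ± 75.9 (SD, n = 2 each). Its log2 fold change was 0.33 ± 0.17 (SE, 95% interval -0.04 to 0.70), with a limma unadjusted p of 0.0751 and an adjusted p of 0.985. It was 0.29 to 0.37 with any 1 array left out and 0.14 without scaling, where the median of all genes was -0.15. Lss, which closes the ring to lanosterol, had 554 and 601 against 509 and 484, a log2 fold change of 0.21. Fdft1, squalene synthase, had 1777 and 1799.7 against 1864 and 1652, a log2 fold change of 0.03 that was -0.08 under median centring, -0.17 without scaling and -0.05 when its probe sets were averaged.

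The later enzymes strip methyl groups from lanosterol and move its bonds. Cyp51, the lanosterol demethylase, had 1561 and 1479 on the positive against 1532 and 1451 on the negative arrays, a log2 fold change of 0.03 that was -0.08 under median centring and -0.16 without scaling. Tm7sf2, a sterol reductase, had nearly equal signals of 193 and 197 against 199.8 and 193. Sqle, Cyp51 and Tm7sf2 were the sterol genes with less than 0.1 on the log2 scale between replicates in both groups. Nsdhl, a decarboxylating dehydrogenase, had 1219.8 and 913 against 1225 and 766, a log2 fold change of 0.12 that was -0.08 without scaling. Ebp, the sterol isomerase, had 1024 and 803 against 1159 and 770.4, a log2 fold change of -0.06. In Nsdhl and Ebp, replicate 1 was above replicate 2 in both groups, and the groups overlapped. Dhcr7, which makes cholesterol in a closing step, had 384 and 546 against 405 and 334, a log2 fold change of 0.31 with overlapping groups. Under median centring the Dhcr7 groups did not overlap, with the positive arrays higher, as in 11.3% of all genes.

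Hsd17b7, the ketoreductase that acts with Nsdhl, had 403 and 303 on the positive against 437 and 157 on the negative arrays. The negative arrays were thus the highest and the lowest of the 4, a gap of 1.39 on the log2 scale that exceeds the group difference of 0.39. Its 4 probe sets above the filter all had negative replicate 2 below negative replicate 1. Its log2 fold change was 1.08 without negative replicate 1, with a limma adjusted p of 0.634, and -0.31 without negative replicate 2.

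**Figure D2:**
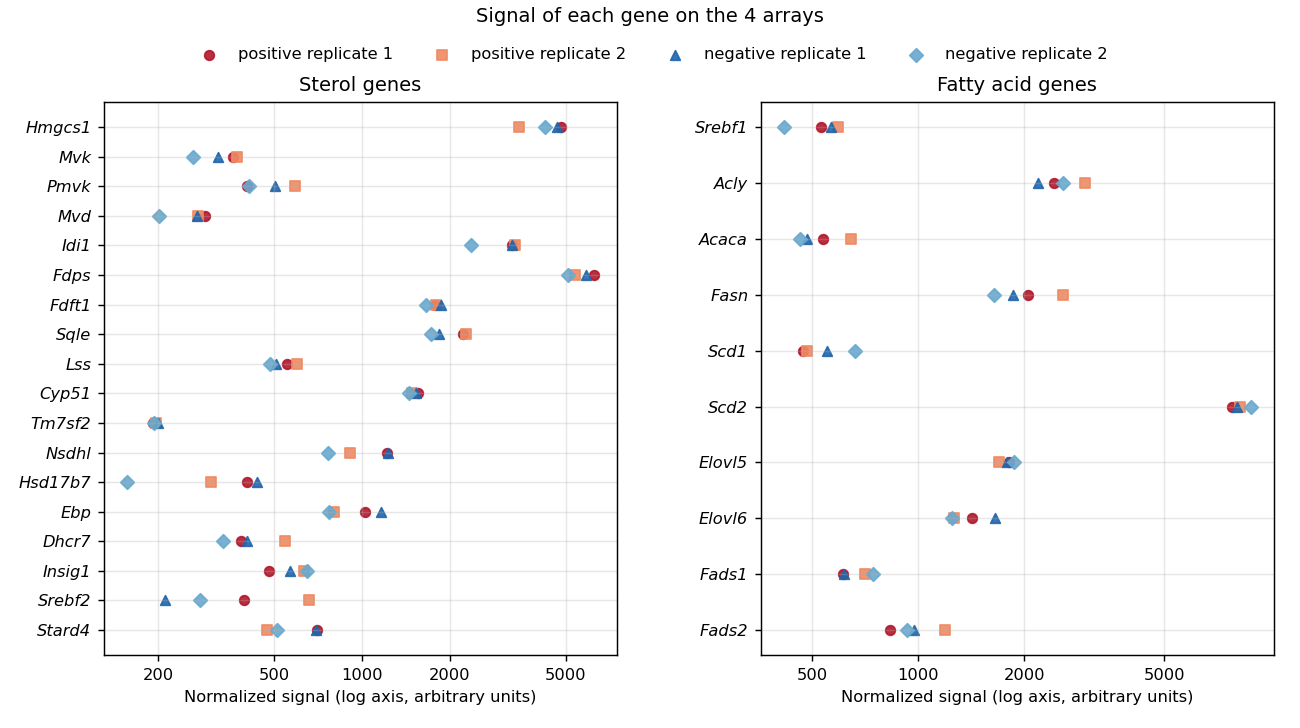
The normalized signal of each gene (x axis, logarithmic, arbitrary units) is shown on the 4 arrays, with circles and squares for the positive and triangles and diamonds for the negative replicates. Points of the 2 groups overlap for most genes, and the diamonds of negative replicate 2 are the leftmost for 12 of the 18 sterol genes.

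That array stood low for the sterol genes as a group. Negative replicate 2 was the lowest of the 4 arrays for 12 of 18 sterol genes, against 29.1% of all genes, while positive replicate 1 was lowest for 3, positive replicate 2 for 2 and negative replicate 1 for 1. It was below negative replicate 1 for 16 of the 18, by a median of 0.23 on the log2 scale, against 51.5% and 0.01 for all genes. Of 10 fatty acid genes it was lowest for 4 and below negative replicate 1 for 5. The pattern was noticed in these data and was not tested. The count of 12 became 11 with one trimmed mean, where all genes had 26.6%, and 4 under median centring, where all genes had 14.7%. Without scaling it was 1, where all genes had 2.00%, since negative replicate 2 is the brightest array as deposited. The median of negative replicate 2 minus negative replicate 1 was -0.21 for sterol and 0.02 for all genes with one trimmed mean. It was -0.02 and 0.15 under median centring, and 0.59 and 0.76 without scaling. The sterol difference between the groups and this array therefore cannot be told apart with 2 arrays a group. On the probe sets used, Srebf2 was the 1 sterol gene with its lowest signal in negative replicate 1. The second Srebf2 probe set had its lowest signal, 178, in negative replicate 2 and its highest, 290.3, in negative replicate 1.

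**Figure D3:**
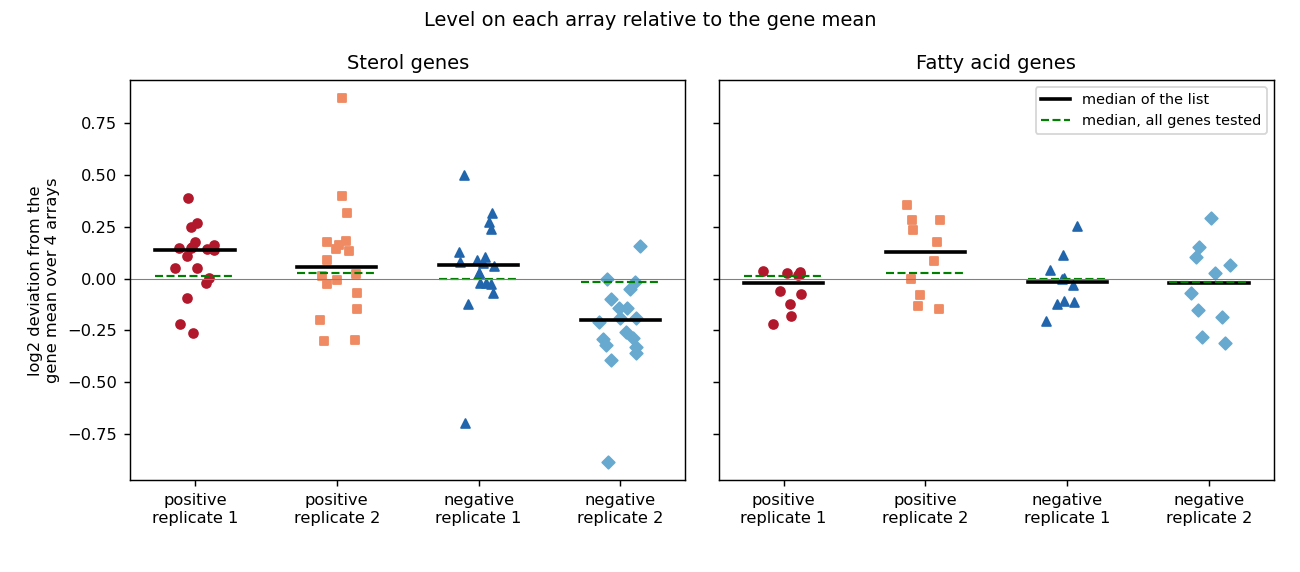
Each point is 1 gene's log2 deviation from its own mean over the 4 arrays (y axis), by array (x axis), for sterol genes on the left and fatty acid genes on the right. Black bars are list medians and dashed green bars the median of all genes; the sterol median falls to -0.20 on negative replicate 2 and lies at 0.06 to 0.14 on the other 3 arrays.

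None of the fatty acid genes passed the test. The 3 enzymes that build palmitate, Acly, Acaca and Fasn, had estimates above 0, and of the 6 elongases and desaturases 5 had estimates below 0, of which Scd2 was above 0 under trimmed-mean scaling. This split of the list was not planned and was not tested. Outside the list, Elovl1, Elovl7, Tecr, Hsd17b12 and Fads3, named here after their values were seen, had estimates above 0, from 0.0068 to 0.37. Fasn, the fatty acid synthase, had 2055 and 2572 on the positive against 1858 and 1645 on the negative arrays, so the groups did not overlap. Its log2 fold change was 0.39 ± 0.18 (SE, 95% interval -0.0099 to 0.79), with a limma unadjusted p of 0.0550 and an adjusted p of 0.985. Acaca, the acetyl-CoA carboxylase that makes malonyl-CoA, had 537 and 644 against 484 and 461, again without overlap. Its log2 fold change was 0.31 ± 0.21 (SE), with a limma unadjusted p of 0.171 and an adjusted p of 0.985. Acly, which splits citrate to supply cytosolic acetyl-CoA, had 2425 and 2984 against 2193 and 2581, overlapping, with a log2 fold change of 0.18. Under trimmed-mean scaling the Acly groups did not overlap, with the positive arrays higher, as in 16.8% of all genes. These 3 enzymes stayed above 0 in all 15 other settings, at 0.01 to 0.21 without scaling.

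Among the elongases and desaturases of the fatty acid list, Scd1 alone had its groups apart on the probe set used, with the positive cells lower. Scd1, a stearoyl-CoA desaturase, had 471 and 482 on the positive against 552 and 659.6 on the negative arrays. Its log2 fold change was -0.33 ± 0.21 (SE), with a limma unadjusted p of 0.143 and an adjusted p of 0.985, and its second probe set gave -0.11. Scd2, the related desaturase, had 7782 and 8189 against 8029 and 8806, a log2 fold change of -0.07 that was 0.07 under trimmed-mean scaling. With separation counted over both lists, 8 of 28 genes had the positive cells wholly above the negative ones, beside 18.5% of all genes, and 1 had them wholly below, beside 13.8%. Under median centring 4 of 18 sterol and 2 of 10 fatty acid genes were wholly above, beside 11.3% of all genes. Under trimmed-mean scaling these were 5 and 3, beside 16.8%, and in both settings Scd1 alone was wholly below. Without scaling 0 of the 28 were separated, beside 4.12% of all genes higher and 6.84% lower.

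The elongases and front-end desaturases had small estimates on their brightest probe sets. Elovl5, which lengthens polyunsaturated chains, had 1815 and 1699 on the positive against 1790.4 and 1875 on the negative arrays, a log2 fold change of -0.06. Elovl6, which lengthens palmitate to stearate, had 1420.2 and 1265 against 1656 and 1245, a log2 fold change of -0.10. Both had overlapping groups, but the dimmest of 3 Elovl6 probe sets had the positive arrays apart and lower, and the mean of its probe sets gave -0.27. Fads1 had 610.1 and 706 against 613 and 742, a log2 fold change of -0.04, which was -0.21 with its second, dim probe set averaged in. That second probe set alone gave -0.39, with 34.2 and 36.6 against 68.6 and 37.3, close on positive replicate 2 and negative replicate 2. Fads2, which with Fads1 makes the long polyunsaturated fatty acids, had 832 and 1187 against 973 and 926, a log2 fold change of 0.07 that was -0.06 under median centring and -0.14 without scaling. In Fads2 the positive arrays were the lowest and the highest of the 4.

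Genes with several probe sets gave a check within the arrays, though such probe sets read the same RNA and are no replicates. Of the 28 genes 18 had several probe sets past the filter, and in 12 of these all probe sets lay on the same side of 0. The other 6 were Hmgcs1, Idi1, Fdft1, Stard4, Scd2 and Fads2. The probe sets of a gene spanned a median of 0.20 on the log2 scale, and Srebf2 had the widest span, 0.74. Acly had 5 probe sets, all above 0, from 0.13 to 0.58, and the 2 highest came from dim probe sets with signals of at most 48.9. Elovl6 had 3, all below 0, from -0.56 to -0.10. Idi1 had 0.25 and -0.05.

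**Figure D4:**
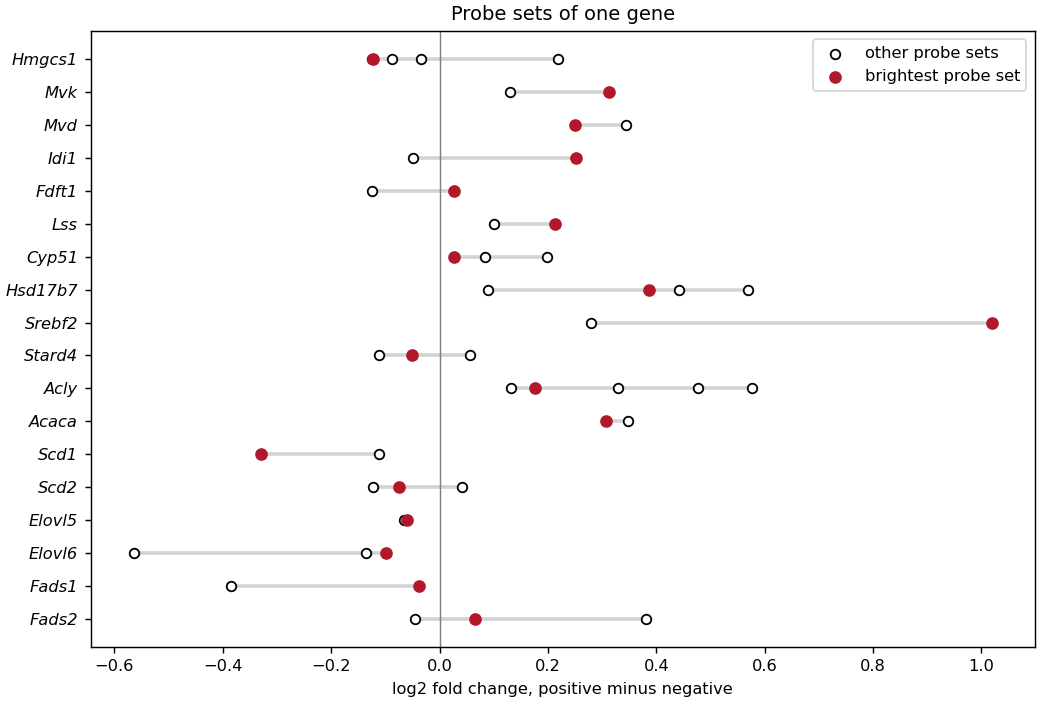
Each row is a gene with several probe sets past the filter, and each point is 1 probe set's log2 fold change (x axis, positive minus negative cells), with the brightest probe set filled red. The grey line spans the probe sets of a gene; the line of Srebf2, from 0.28 to 1.02, is the longest of the 18.

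Other genes of the same pathways did not pass either. Of 11 tested genes of sterol supply and control, 0 were called by limma or had an unadjusted p under 0.05. Of these genes 4 were above 0, beside 54.3% of all genes, and the median was -0.07. The count above 0, recomputed after the data were seen, was 2 both under median centring and without scaling. In those settings the median of all genes was -0.07 and -0.15. Without negative replicate 2 the count was 6, with a median of 0.01. Ggps1, which makes geranylgeranyl diphosphate, had a log2 fold change of -0.20, and Acat1, the mitochondrial thiolase, had -0.26 with 2556 and 2248 on the positive against 2898 and 2859 on the negative arrays. Npc1, the lysosomal cholesterol exporter, had 0.29 and its partner Npc2 had -0.13. Npc1 was dim, near the filter signal of 19.4, with 33.8 and 36.85 on the positive against 20.1 and 32.5 on the negative arrays. Ggps1, Acat1 and Npc1, and Osbp below, were named from genes whose groups did not overlap, so their separation follows from that choice. Of the 11 genes 1 had the positive arrays wholly above the negative ones, beside 18.5% of all genes, and 2 wholly below, beside 13.8%. Of 4 genes of sterol esterification, oxidation and efflux, 1 was above 0, Osbp, an oxysterol-binding protein, at 0.21, and 0 had an unadjusted p under 0.05 in limma.

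Of 17 further genes of fatty acid synthesis and use, 15 were above 0, beside 54.3% of all genes, with a median of 0.14. Again 0 were called by limma or had an unadjusted p under 0.05. The count above 0, recomputed after the data were seen, was 10 under median centring and 6 without scaling. There the median of all genes moved to -0.07 and -0.15. In both of these settings, which must give the same value, the list median lay 0.09 above that of all genes. It lay 0.11 above it in the main setting and 0.10 above it under trimmed-mean scaling. This difference from all genes was not tested. Dgat1, which forms triglyceride, had 199.6 and 219 on the positive against 162 and 133 on the negative arrays, a log2 fold change of 0.47. Elovl7, an elongase of saturated chains, had 555 and 536 against 361 and 484, a log2 fold change of 0.37. Tecr, the reductase that completes each elongation round, had 2846 and 3278 against 2638 and 2566, a log2 fold change of 0.23. These 3 were named from the genes whose groups did not overlap, so their separation follows from that choice. Of the 17 genes 7 had the positive arrays wholly above the negative ones, beside 18.5% of all genes. In 1 they were wholly below, beside 13.8%. Acsl5, an acyl-CoA synthetase, had a log2 fold change of 0.04.

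With 2 arrays a group the median standard error of the log2 fold changes of the 28 sterol and fatty acid genes was 0.21, so differences of the size estimated for most of them were not detectable. An exact permutation test of 2 arrays against 2 cannot give a two-sided p under 0.333.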

How the data were processed

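The deposited values were linear intensities, 1 per probe set and array, of 45101 probe sets. GCOS, the Affymetrix operating software, is named in the submitters' processing notes; of the probe summary, background and scaling steps the sources used here say nothing. Intensities were quantile normalized between the 4 arrays and taken as log2(signal + 16). After 64 control probe sets were removed, those with a mean below the 40th percentile (a signal of 19.4) were left out. The brightest probe set of each singly annotated gene was kept (platform annotation of 2016; RefSeq gene numbers changed 0 symbols). All 28 measured members passed this filter. Groups came from the sample titles and were compared by a linear model in limma (version 3.58.1, R 4.3.3), whose moderated two-sided test let the variance follow intensity. P-values were adjusted over 11956 genes by Benjamini-Hochberg, with a threshold of 0.05. The fit was tested on simulated data with added changes larger than nearly all the estimates here. That run does not bear on differences of the size estimated for most members.

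The genes, lists and tests were chosen with earlier results of these data known. Named were all members and, from each list of other pathway genes, the separated genes with the smallest p, at most 3, and the brightest. Of those other genes 4 were below the filter, and 6 were not analysed here. Alternatives were 3 other scalings, pseudocounts of 1 and 64, no filter or the 60th percentile, averaged probe sets, removal of the less specific ones (_x_at, _s_at), no trend, the replicate number as a block, and each array left out in turn.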

Additional observations from a re-analysis of the deposited data

How the results depend on the processing

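No member passed the adjusted threshold under any of the 15 alternatives; the lowest adjusted p was 0.0799, for Srebf2 with the replicate block. Over all genes, 9 were called higher and 0 lower; these counts were 20 and 5 under median centring, 15 and 3 with the replicate block, 3 and 0 with no scaling or with no filter, 2 and 0 without the trend, and 6 to 16 and 0 to 1 with any 1 array left out (16 without positive replicate 1, 1 lower without negative replicate 2). Of the members 12 kept one direction in every setting. With no scaling 8 sterol and 3 fatty acid genes were above 0, with medians of -0.054 and -0.13. Leaving out any 1 array gave 7 to 16 sterol genes above 0, medians of -0.027 to 0.24 for sterol genes and -0.015 to 0.17 for fatty acid genes (0.17 without positive replicate 1).

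Direction turned under median centring for Pmvk (-0.026), Fdft1 (-0.084), Cyp51 (-0.082) and Fads2 (-0.060), and with no scaling for Pmvk (-0.11), Fdps (-0.027), Fdft1 (-0.17), Cyp51 (-0.16), Nsdhl (-0.080), Srebf1 (-0.0041) and Fads2 (-0.14). It turned with one trimmed mean for Scd2 (0.069) and with the mean of probe sets for Fdft1 (-0.049). No scaling itself moved the median of all genes from 0.03 to -0.15, and centring moved it to -0.07. Leaving out 1 array turned the direction of 15 genes, with ranges of -0.36 to 0.11 for Hmgcs1, -0.17 to 0.36 for Pmvk, -0.023 to 0.19 for Fdps, -0.064 to 0.11 for Fdft1, -0.012 to 0.067 for Cyp51, -0.032 to 0.011 for Tm7sf2, -0.22 to 0.45 for Nsdhl, -0.31 to 1.08 for Hsd17b7, -0.35 to 0.23 for Ebp, -0.33 to 0.066 for Insig1, -0.015 to 0.41 for Srebf1, -0.32 to 0.22 for Stard4, -0.30 to 0.11 for Elovl6, -0.17 to 0.10 for Fads1 and -0.19 to 0.31 for Fads2. The lone array left in a group is then assumed to vary like the others.

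The replicate numbers were not shown to pair the arrays: the labels give no shared day, and over all genes the differences between replicates 1 and 2 correlated across groups at 0.12. The causes of these changes were not tested. The other pathway counts, the promoter counts and the array pattern were recomputed under alternatives chosen after seeing the data.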
